A study of Fragaria vesca with 3 samples.

Results

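The 3 genes described here encode 9-cis-epoxycarotenoid dioxygenases (NCED) of woodland strawberry (Fragaria vesca). They are FvH4_3g05440 (NCED1), FvH4_3g16730 (NCED3-like) and FvH4_4g05900 (NCED6), chosen by gene ID with the descriptions in the deposited peak lists. They are 3 of the 18238 genes that have at least 1 peak in either replicate list. Through their protein identifiers all 3 matched a gene of NCBI RefSeq, namely LOC101315210 for NCED1, LOC101293791 for NCED3-like and LOC101292752 for NCED6. Any NCED gene without a peak appears in no list and was not analysed here.

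The study mapped where FvSEP3, a MADS-domain transcription factor, binds DNA of wild-type fruit collected at 30 days post anthesis. The method was DNA affinity purification sequencing (DAP-seq), in which the factor is used to retrieve fragments of purified genomic DNA. There were 2 immunoprecipitation (IP) samples, which the study calls biological replicates, and 1 input sample of the same DNA source. Purified DNA carries no chromatin, so a peak is binding to naked DNA and not occupancy in the fruit.

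NCED enzymes cleave 9-cis-epoxycarotenoids in plastids to give xanthoxin, the committed step of abscisic acid synthesis. Xanthoxin then leaves the plastid and is oxidised to abscisic acid by a dehydrogenase and an aldehyde oxidase. Abscisic acid is a main hormone of ripening in the non-climacteric strawberry fruit. SEPALLATA proteins such as SEP3 act in complexes with other MADS-domain proteins and recognise the CArG box, an AT-rich DNA element.

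The IP replicate 1 list held 19298 peaks and the IP replicate 2 list held 21823, and a merged list of the authors held 13283. The fold enrichment of a peak, its signal over the local background, is the authors' own value and ranks peaks only within a list. Ratios, means and SDs across lists given below use it as deposited, with no scaling between lists. The median fold enrichment was 3.05 in replicate 1 and 3.004 in replicate 2, and no peak lay below 2.002 and 2.001. Read totals were not given. For MACS2, the peak caller named by the submitters, a fold enrichment and its p-value together fix the number of fragments stacked over the peak. This number came out whole for 19289 of the 19298 peaks of replicate 1 and 21813 of the 21823 of replicate 2. The median was 50 and 54 fragments. The lowest background that any peak was set against was 12.97 fragments in replicate 1 and 14.2 in replicate 2.

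Across both replicate lists the NCED genes held 6 peaks, 2 in replicate 1 and 4 in replicate 2. In each list 1 of them overlapped a peak of the other list, where 70.5% of all replicate 1 peaks and 62.0% of all replicate 2 peaks did. NCED6 was the single gene of the 3 whose peaks overlapped between the replicate lists, at its gene start. NCED3-like had 1 peak in each list, at different places. NCED1 had a peak in replicate 2 alone. Over all genes with a peak in either list, 58.6% had overlapping peaks in both, so 1 of 3 genes is a count too small to set apart from that background. Positions follow the deposited lists, and no source used here names their genome build.

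NCED6 had the strongest peak of the 3 genes and the most unequal pair of values. In Arabidopsis the gene of this name is known for abscisic acid synthesis in the seed. The replicate 1 peak lay on chromosome 4 from 5280859 to 5281416, 558 bp long, with a fold enrichment of 3.68 and a −log10 q of 15.3. The replicate 2 peak lay from 5280934 to 5281375, 442 bp long, with a fold enrichment of 2.34 and a −log10 q of 5.78. The replicate 2 interval fell wholly inside that of replicate 1, and the overlap of 442 bp was 79.2% of the longer peak. The mean fold enrichment was 3.01 ± 0.948 (SD, n = 2).

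The same site therefore stood high in one list and near the bottom of the other. The replicate 1 peak was at percentile 85.2 of fold enrichment in its list, at rank 2844, and the replicate 2 peak at percentile 7.86, at rank 20095. Replicate 1 was 1.57 times replicate 2, where the median of that ratio over all 13665 overlapping pairs was 1.0002. Only 0.681% of the pairs had a larger difference in either direction on the log2 scale. As counts, 63 fragments were stacked over the peak in replicate 1 (95% exact Poisson interval 48.4 to 80.6) against a background of 16.4. In replicate 2 the numbers were 47 fragments (34.5 to 62.5) and a background of 19.5. With the background held fixed, these counts allow a fold enrichment of 2.84 to 4.70 in replicate 1 and 1.73 to 3.10 in replicate 2. The intervals overlap, but an overlap of separate intervals is no test of a difference, and none was made. The intervals cover counting error only.

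The NCED6 peak covered the start of the gene. The merged list counts distance from the middle of a peak, which gave 1 gene start per transcript for all 1769 transcripts with several merged peaks, to within 2 bp. In the replicate lists distance is counted from a point inside the peak, as held for all 4302 peaks of replicate 1 and all 4426 of replicate 2 that could be checked. For NCED6 the start was at 5281190 on the minus strand. The replicate 1 peak reached from 226 bp upstream to 331 bp inside the gene, and the replicate 2 peak from 185 bp upstream to 256 bp inside. The points of the 2 peaks lay 129 and 29 bp upstream, so that both were listed as promoter within 1 kb, while the merged peak was listed at 53 bp inside the gene as exon 1 of 1. Its annotated class thus differed between the lists although the interval of replicate 1 and the merged peak were the same.

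A second NCED6 peak was listed in replicate 2 alone. It lay on chromosome 4 from 5288747 to 5288976, at 7671 bp upstream in an intergenic position, with a fold enrichment of 3.001 and a −log10 q of 9.44. Here 50 fragments (37.1 to 65.9) were stacked over a background of 15.99. In replicate 2 this distal peak was higher than the one at the gene start, at percentile 49.3 of its list. Counted from the NCED6 start, and not from this distal peak, the nearest peak of another gene lay 9647 bp away in replicate 1. It was that of FvH4_4g05890, described as serine/threonine-protein kinase pakF, between 5271181 and 5271543 in replicate 1. It was enriched 3.34-fold there and 2.42-fold in replicate 2.

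**Figure D1:**
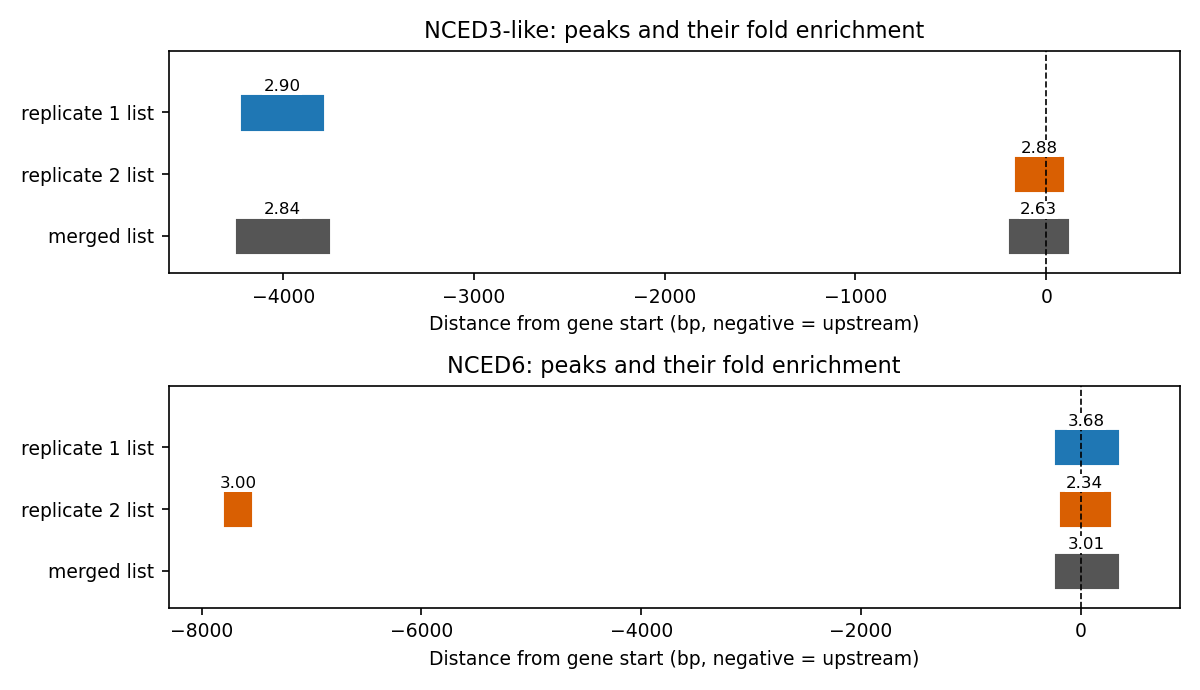
Peaks of NCED3-like (upper panel) and NCED6 (lower panel) in the replicate 1, replicate 2 and merged lists, as boxes drawn to scale against distance from the gene start in bp, with negative values upstream and the dashed line at the start. The number above each box is its deposited fold enrichment. The NCED6 peak at the start is in all 3 lists, while each NCED3-like site is in 1 replicate list and in the merged list.

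NCED3-like had peaks at 2 sites, 1 over the gene start and 1 about 4 kb upstream, and the lists differed on which replicate held them. NCED3 of Arabidopsis is known as the main NCED gene of the response to drought. In the replicate 1 list the gene had an intergenic peak on chromosome 3 from 10560259 to 10560676, with its point at 4114 bp upstream. The fold enrichment was 2.90 and the −log10 q was 8.86, from 50 fragments (37.1 to 65.9) over a background of 16.6. In the replicate 2 list it had a promoter peak from 10564318 to 10564557 at 42 bp upstream. There the fold enrichment was 2.88 and the −log10 q was 8.55, from 48 fragments (35.4 to 63.6) over a background of 15.99. Both were below the middle of their lists, at percentiles 39.2 and 40.6. The gene start was at 10564474 on the plus strand, and the promoter peak reached from 156 bp upstream to 83 bp inside the gene.

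The merged list, which held peaks of 58.3% of all genes with a peak in either replicate list, held 2 of the 3 NCED genes, NCED3-like and NCED6. For NCED3-like it gave both sites as found in both replicates. Its distal peak, from 10560234 to 10560708, carried a mean fold enrichment of 2.84 from replicate values of 2.90 and 2.78. Its promoter peak, from 10564284 to 10564585, carried a mean of 2.63 from replicate values of 2.38 and 2.88. Of these 4 replicate values, 2 are those of the replicate lists, to every digit given, but with wider intervals. The distal peak of replicate 1 was wider by 25 bp at its start and 32 bp at its end, and the promoter peak of replicate 2 by 31 and 28 bp. The other 2 have no peak at that place in the replicate list.

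These 2 unlisted peaks were not below the weakest entries of the lists. The promoter peak given for replicate 1 had a fold enrichment of 2.38 and a −log10 q of 4.57, from 35 fragments (24.4 to 48.7) over a background of 14.1. In the replicate 1 list 753 peaks had both a lower fold enrichment and a lower −log10 q. The distal peak given for replicate 2 had 2.78 and 8.82, from 53 fragments (39.7 to 69.3) over a background of 18.4, and 6730 peaks of the replicate 2 list were lower in both. The peak names also differed. In 13279 of the 13283 merged rows both replicate peaks bore names found in the replicate lists, and 2 of the other 4 rows were those of NCED3-like. The replicate 1 peaks of these rows were numbered 12630 and 12631, where the replicate 1 list numbers its distal peak 5714. Whether they come from another round of peak calling was not tested.

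NCED1 had the lowest fold enrichment of the 6 NCED peaks, and a peak in 1 list only. In strawberry a gene of the name NCED1 is known for expression that rises with abscisic acid in the ripening fruit. Its single peak was in the replicate 2 list, on chromosome 3 from 3179440 to 3179782, with its point 98 bp inside the gene in exon 1 of 1. Its fold enrichment was 2.26, at percentile 4.88 of the list, and its −log10 q was 5.85. The peak had 52 fragments (38.8 to 68.2), at percentile 42.8 of its list, set against a background of 22.5, at percentile 94.7 and 1.58 times the lowest background of that list. Its fragment count was thus near the middle of the list and its background near the top, and the source of that background was not tested. Neither the replicate 1 list nor the merged list held a peak for NCED1, and 22.4% of all genes with a peak had one in replicate 2 only. The nearest other peaks, of FvH4_3g05461 (an F-box/kelch-repeat protein), began 15915 bp away in replicate 1 and 15936 bp away in replicate 2. The strand and start of NCED1 could not be derived, as they were solved from the middle of merged peaks and NCED1 has none.

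**Figure D2:**
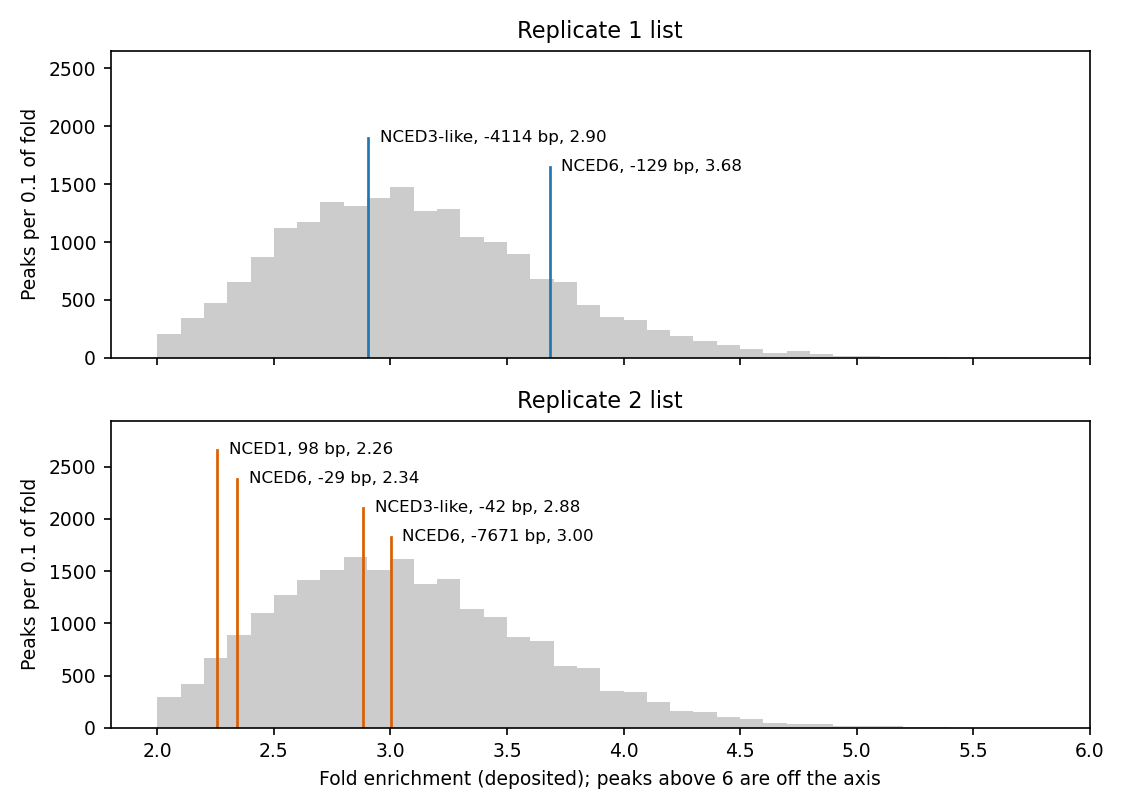
Deposited fold enrichment of all peaks of the replicate 1 list (upper panel) and the replicate 2 list (lower panel), as the number of peaks per 0.1 of fold, with a coloured line at each NCED peak labelled by gene, distance from the gene start and fold enrichment. The replicate 1 peak of NCED6 at 3.68 lies on the upper shoulder of its list, at percentile 85.2, and the NCED1 and NCED6 start peaks of replicate 2 at 2.26 and 2.34 lie in the lower tail of theirs, at percentiles 4.88 and 7.86.

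**Figure D3:**
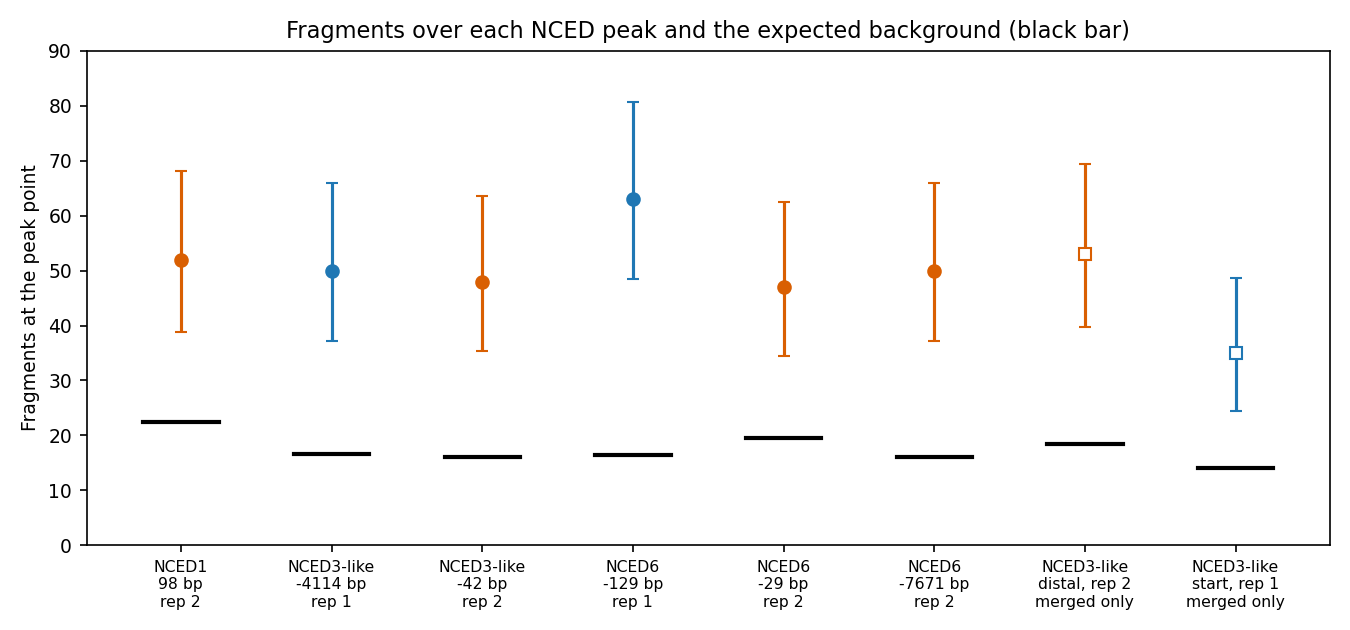
Fragments stacked over each NCED peak (circles, blue for replicate 1 and orange for replicate 2), with exact 95% Poisson intervals as bars and the expected background as a black line. Open squares are the 2 replicate peaks of NCED3-like that only the merged list gives, of which that over the gene start is the lowest of all at 35 fragments. NCED1 has the highest background, 22.5.

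At the gene start, 1 of the 3 NCED genes had a promoter peak in both replicate lists, with a promoter taken as the 2 kb before the gene start. That gene was NCED6. Over all genes with a peak in either list the share was 13.7%. The merged list also gave 1 of 3 by the same rule, but there it was NCED3-like, since the merged NCED6 peak was placed inside the gene. Over all genes the merged list gave 14.1%. NCED6 had no shared peak once peaks were limited to at least the median fold enrichment of their list or to a −log10 q of at least 10. The share of all genes that lose their shared peaks at these limits is not given here.

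The pairs of overlapping peaks most like the NCED6 pair belonged to no gene described as acting in abscisic acid synthesis. They are 3 of 13665 pairs, and few genes carry such a description, so this outcome was all but fixed beforehand. Likeness was the distance between pairs in the log2 fold enrichment of replicates 1 and 2. The closest was an intergenic peak assigned to FvH4_4g10192, which has no description, at 3.70 and 2.37. Next were an intron peak of FvH4_1g07520 (WD repeat-containing protein 53-like) at 3.64 and 2.32 and a 3' UTR peak of FvH4_1g14100 (elongation of fatty acids protein 3-like) at 3.62 and 2.36.

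Other genes of abscisic acid and carotenoid metabolism were found by words in their descriptions, which gave 30 genes beside the NCED genes. Not all of them act on the route to abscisic acid, since other carotenoid cleavage dioxygenases and a carotene epsilon-monooxygenase are among them. Of these, 15 (50%) had overlapping peaks in both replicate lists, against 58.6% of all genes with a peak. Promoter peaks in both lists were found for 5 (16.7%), against 13.7%. Peaks in replicate 2 alone were found for 9 of the 30, against 22.4% of all genes with a peak, and in replicate 1 alone for 3, against 14.8%. The best overlapping pairs of the 15 had median fold enrichments of 3.07 (replicate 1) and 2.79 (replicate 2), beside 3.12 and 3.12 over all pairs. The measures differ, since all pairs take in every pair of a gene and not its best alone. Limited to a −log10 q of at least 10, 1 of the 15 was left, and 3 were left at the median fold enrichment. The median −log10 q was 9.59 in replicate 1 and 10.1 in replicate 2, so these limits lie near the middle of the lists. The share of all genes left at them is not given here, so these counts have no background to be read against.

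The counts by role that follow rest on 3 to 10 genes each and are to be read against the same 58.6%, from which counts this small cannot be set apart. Among the genes of carotenoid synthesis, 4 of 7 had overlapping peaks. FvH4_6g21000 (prolycopene isomerase, which turns the double bonds of lycopene from cis to trans) had a 5' UTR peak at 3.27 ± 0.154 (SD, n = 2). FvH4_3g45220 (phytoene synthase 2-like, of the entry step) had a 3' UTR peak at 2.58 ± 0.121 (SD, n = 2). In the xanthophyll cycle, which supplies the epoxycarotenoids, 4 of 10 genes had overlapping peaks. Of these 10 genes, 9 are described as zeaxanthin epoxidase-like but carry only 5 protein identifiers. Whether they are near-identical copies that share reads was not tested. FvH4_1g12581 had a promoter peak at 3.45 ± 0.317 (SD, n = 2), FvH4_3g33122 an intergenic peak at 3.26 ± 0.563 (SD, n = 2) and FvH4_1g23750 a promoter peak at 2.62 ± 0.0910 (SD, n = 2).

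Beside the NCED enzymes, 1 of 3 other carotenoid cleavage dioxygenases had overlapping peaks. This was FvH4_4g34690, described as carotenoid cleavage dioxygenase 4, of an enzyme that degrades carotenoids to apocarotenoids. Its point lay 1958 bp upstream in both lists, at 3.77-fold enrichment in replicate 1 and 2.73-fold in replicate 2. Of 4 genes placed after the NCED step by words in their descriptions, 2 had overlapping peaks. FvH4_7g02370, described as xanthoxin dehydrogenase, the enzyme that acts on the NCED product, had a promoter peak (chromosome 7, 2667831 to 2668077 in replicate 1). Its points lay 268 and 286 bp upstream in replicates 1 and 2. Its fold enrichment was 2.85 in replicate 1 and 3.62 in replicate 2. FvH4_6g53780 (short-chain dehydrogenase reductase 2a) had an intron peak at 2.71 ± 0.333 (SD, n = 2). Whether its product acts on xanthoxin was not tested.

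Genes that remove abscisic acid held the pair with the best mean rank among the 15. Overlapping peaks were found for 4 of 6 of them, near the 58.6% of all genes with a peak, namely 3 of the 5 abscisic acid 8'-hydroxylase genes, whose products start its breakdown, and a glucosyltransferase. FvH4_5g25150 (abscisic acid 8'-hydroxylase 1-like) had a peak over its start region on chromosome 5 from 16618293 to 16619055, at 8 bp inside the gene in replicate 1 and 53 bp upstream in replicate 2. Its fold enrichment was 4.18 and 3.72, at percentiles 96.1 and 87.6 of the lists. FvH4_1g12750 (8'-hydroxylase 3-like) had a 3' UTR peak at 3.56 ± 0.792 (SD, n = 2) and FvH4_2g14100 (8'-hydroxylase 3-like) an intergenic peak at 2.93 ± 0.189 (SD, n = 2). FvH4_2g05690 (abscisate beta-glucosyltransferase-like, which stores the hormone as its glucose ester) had an exon peak at 2.94 ± 0.212 (SD, n = 2), and it was the 1 gene of the 15 with no peak in the merged list. The 5 genes with a promoter peak in both lists were FvH4_1g12581, FvH4_1g23750, FvH4_4g34690, FvH4_7g02370 and FvH4_6g25130 (lycopene beta cyclase), the last named after its values were seen.

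**Figure D4:**
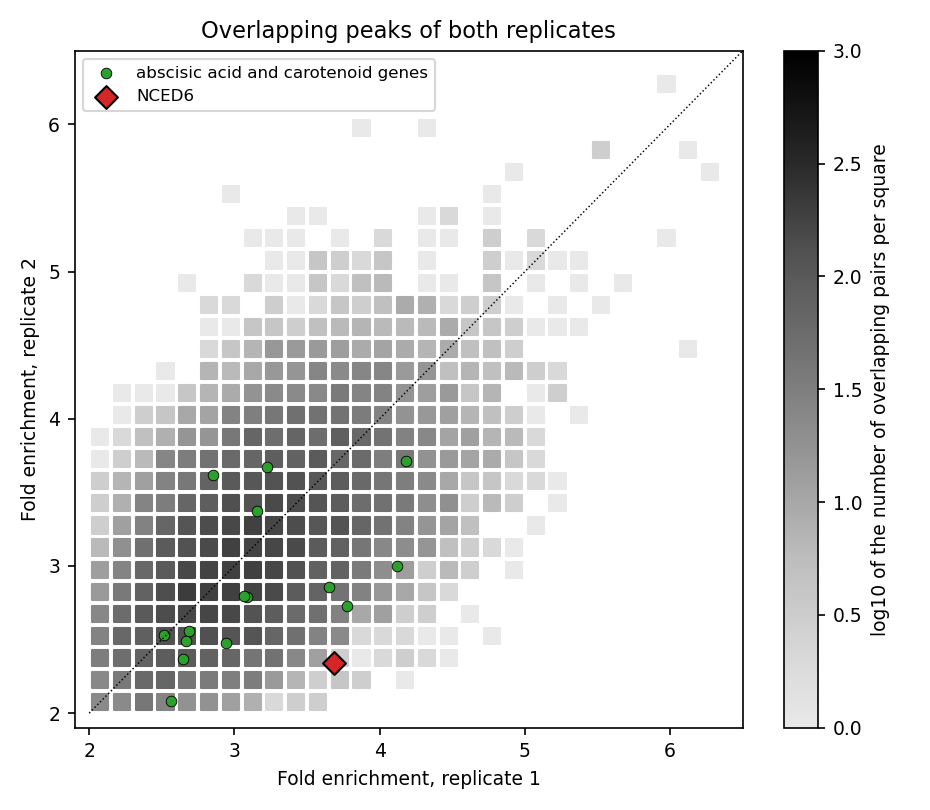
Fold enrichment in replicate 1 (x axis) and replicate 2 (y axis) of overlapping peaks, with grey squares for the number of pairs (log10 scale, pairs above 6.5 not drawn), the best pair of each of 15 abscisic acid and carotenoid genes in green and the NCED6 pair as a red diamond. The dotted line marks equal values. NCED6, at 3.68 and 2.34, lies farther below the line than any of the 15.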

How the data were processed

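The submitters' processing notes name BWA and MACS2, with no version, setting or genome build in any source used here. Of the 3 tables, 2 list the peaks of 1 IP replicate each and the third those found in both, per the file headers. Each peak carries a −log10 p-value and −log10 q-value of the caller, as deposited, together with its fold enrichment, a ratio over background as deposited by the authors. The merged list gives the authors' means over the replicates, of which the mean −log10 q was not used. No list of the input was used.

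Peaks were shared if they overlapped by at least 1 bp, computed in Python 3.11.15 (scipy 1.17.1, pandas 2.3.3) and tested on simulated data against bedtools 2.31.1. Fragments k and background b were solved from the fold (k + 1)/(b + 1) and the Poisson upper tail, with a tolerance of 0.001 in −log10 p, also tested on simulated data. Gene starts were solved from the deposited distances. With 2 replicates and 3 genes no test was made, and ± gives the SD of 2 deposited values. A promoter peak had its point up to 2000 bp upstream. No sequence is printed, as none was used here.

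The NCED genes, the word list and the rule for naming genes (the 3 NCED genes and their neighbours, up to 12 pathway genes by mean rank of fold, and the 3 pairs nearest NCED6) were chosen with earlier results of these data known. No gene was removed from the word list. RefSeq symbols come from FraVesHawaii_1.0.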

Additional observations from a re-analysis of the deposited data

How the results depend on the processing

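Counts of shared NCED peaks (1), genes with overlapping peaks (1) and genes with a promoter peak in both lists (1) were the same with an overlap of at least 50% of both peaks and with midpoints within 100 bp, and the promoter count also with promoters of 1 and 3 kb or with 500 bp of the gene added. At or above the median fold enrichment, the counts were 0, 0 and 0, with 3 pathway genes in place of 15. With −log10 q limited to 10 or more they were 0, 0 and 0, with 1 pathway gene. In these settings NCED6 is lost because its replicate 2 peak is below either limit. The shares of all genes left at these limits are not given here, so the lower counts say nothing particular to the NCED or pathway genes. The merged list gave 3 peaks and 2 genes (NCED3-like and NCED6), and its 1 promoter gene was NCED3-like instead of NCED6. With a replicate left out, any peak of the other counts. The ranges were then 2 to 4 peaks, 2 to 3 genes, 1 to 2 promoter genes and 21 to 27 pathway genes. The higher value came from replicate 2 each time. Of all 18238 genes with a peak in either list, 14153 had one in replicate 1 and 15538 in replicate 2. Ranking by −log10 p or q moved no NCED peak's percentile by more than the SD of the NCED6 pair, 54.7 points, which is too wide to show stability; the largest move was 5.95 points. Assigning peaks by distance to both gene ends was not run, as gene ends are in no file used here; peaks within 5 kb of the gene start, a setting chosen after seeing the data, gave 1 peak and 1 gene for NCED3-like and NCED6 together. No paired analysis was possible because the IP replicates are 1 group and no test was made. The fragments per peak limit all values: the listed NCED peaks had 47 to 63 fragments. The Poisson intervals of all 6 overlap, which is no test of a difference between them.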

Other observations

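The other 2 merged rows whose replicate peaks bear names outside the replicate lists belonged to FvH4_2g04750 (probable indole-3-acetic acid-amido synthetase GH3.1, an enzyme that conjugates auxin), with a mean fold enrichment of 2.73, and FvH4_7g01160 (polyketide synthase 1), with 2.49. For FvH4_2g04750 both replicate intervals are in the replicate lists. For FvH4_7g01160 that of replicate 1 is in its list and that of replicate 2 is not. Both genes were chosen after their values were seen.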
